A study of Homo sapiens with 22 samples.

Results

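HNRNPG, the product of RBMX, binds RNA in the nucleus, and its knockdown KD2 in HEK293T cells was compared here with the control of the same series for the usage of single exons. HEK293T is a line derived from human embryonic kidney. The comparison covered every exonic bin of the deposited exon table, 2635 of 2635, and all of them belong to genes with listed sites of N6-methyladenosine (m6A). A gene model's exons are divided wherever any of its transcripts starts or ends an exon, and each piece is an exonic bin. The 4 RNA-seq libraries behind it were 2 of the control, whose genotype is given as wild type, and 2 of KD2, whose genotype is given as HNRNPG knockdown. A second knockdown, KD1, had 2 libraries of its own and was set against the same 2 control libraries. The labels give no knockdown reagent, no duration and no difference between KD1 and KD2, and do not say whether a group's libraries came from separate or shared cultures. In the METTL series of the same study, METTL3 and METTL14 knockdown had 2 libraries each and separate control libraries. Stranded mRNA libraries were made throughout, and the labels place knockdown and control libraries on a shared flowcell.

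HNRNPG binds RNA through an RNA recognition motif and a low-complexity region and takes part in the choice of exons. The methyltransferase that places m6A on mRNA is built from METTL3 and METTL14. A methylated adenosine can loosen base pairing around it and leave neighbouring bases open to binding proteins, and HNRNPG is known as one such reader. The study asked which exons are included differently once HNRNPG is reduced.

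Each value below is the authors' log2 ratio of exon usage, turned to knockdown over control, so that a negative value is lower usage in KD2. Usage sets a bin against its whole gene model, so that levels of the whole gene are meant to cancel, and bins of a model are not free of each other. There was 1 value per bin and knockdown, with no value per library, count, error or p-value. The depth and the replicate spread behind each bin are therefore unknown, and no test over samples could be made. A size of 1 on the log2 scale, a 2-fold change, was used to single out bins, and sizes of 0.5 are given beside it. The level of RBMX itself was not analysed here, so the knockdown was not checked, nor was the identity of the cells. Exons are named by their bin number, with hg19 coordinates, and their coding or untranslated status was not analysed here.

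The large changes in KD2 were mostly losses of exon usage. In the authors' deposited table, 104 bins reached a size of 1, which is 3.95% of all bins, 79 of them lower (3.00%) and 25 higher (0.949%). Lower bins thus made up 76.0% of the 104 (95% exact Clopper-Pearson interval 66.6 to 83.8%, which covers counting error only). The 104 bins lay in 74 of 636 gene models (11.6%), with a lower bin in 55 and a higher bin in 23. Beyond a size of 2 there were 17 bins, all lower, and no bin was higher than 1.65. At the threshold the nearest values inside were -1.001 and 1.003, and the nearest outside were -0.996 and 0.993.

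Small changes leaned the same way, but less. Of the 2635 bins, 1496 were lower (56.8%) and 1136 higher (43.1%), with a median of -0.064 (order-statistic interval -0.080 to -0.048). Among the 572 bins of at least 0.5, 21.7% of all, 64.2% were lower: 367 lower (13.9%) and 205 higher (7.78%). Centring all values on their median takes the typical bin as unchanged and by construction splits the bins about evenly, here with 49.9% lower. After it, the lower share among bins of size 1 was 64.4%. The preference for lower usage among large changes thus held under both, with a smaller excess after centring.

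**Figure D1:**
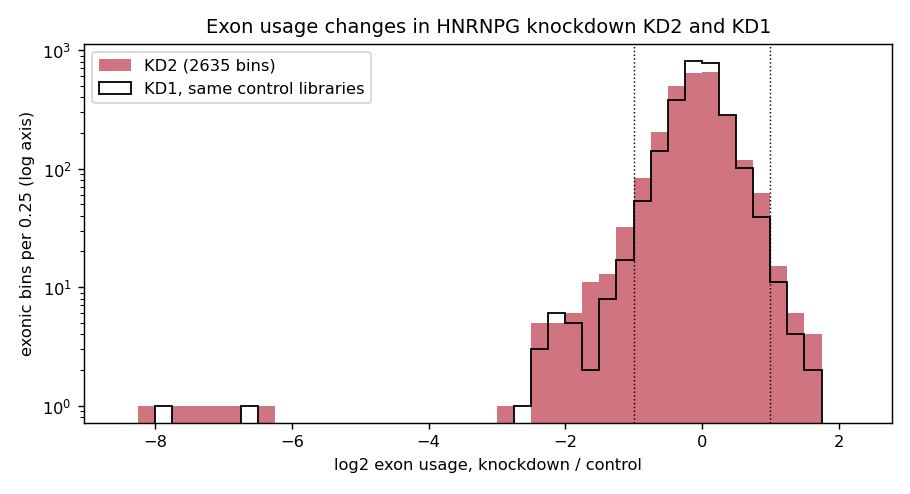
Number of exonic bins (y axis, log scale) by log2 exon usage of knockdown over control (x axis, classes of 0.25) for KD2 in red and KD1 as a black outline, with dotted lines at a size of 1. The left tail is longer than the right in both, and 6 KD2 bins lie below -5 with none between there and -2.78.

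Lowest of all in KD2 were 6 bins between -8.03 and -6.36, far apart from the next at -2.78. Of these, 3 belonged to single genes. CTNNB1 encodes beta-catenin, which joins cadherins to the cytoskeleton and carries Wnt signals. Its exon bin 15 (chromosome 3, 41265681 to 41265812, 132 bp) stood in the authors' deposited table at -7.52 in KD2, -0.28 in KD1, -1.80 in METTL3 and -0.21 in METTL14 knockdown. The 2 other listed bins of the gene, 55 and 56, had 0.17 and 0.14 in KD2 in the authors' deposited table. They did not share the low value, and the bins of the gene that are not listed could not be seen. ODF2L, a centriolar protein, had -7.16 in KD2 and -0.34 in KD1 at exon bin 11 (chromosome 1, 86817688 to 86817891), per the authors' deposited table. The bin that abuts it, exon bin 10, had -1.36 in KD2 and -0.94 in KD1 there. RALGAPA1, a subunit of a GTPase-activating complex for Ral proteins, had -7.37 at exon bin 60 against 1.11 at exon bin 14 and -0.03 at exon bin 48 in KD2, per the authors' deposited table. Its exon bin 60 was also low in METTL3 (-6.90) and METTL14 knockdown (-1.79), with -0.82 in KD1. Exon bin 14 was higher in all of these, at 2.585 in METTL3, 1.34 in METTL14 and 0.64 in KD1. The 3 others lay in models that join several genes. They were exon bin 33 of DCUN1D3andERI2andTHUMPD1 (-8.03), exon bin 45 of ANAPC11andNPB (-6.77) and exon bin 70 of HOMER3andCOPE (-6.36) in the authors' deposited table. No count lies behind these values here, and how few reads such bins held is unknown.

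Below these, several genes had low values in more than 1 bin. M6PR, the cation-dependent mannose 6-phosphate receptor that carries enzymes to lysosomes, had 5 listed bins, all lower in KD2. Its exon bins 1 to 4 abut each other (chromosome 12, 9092144 to 9092964) and had -1.46, -2.34, -2.37 and -2.41 in KD2 against -0.64, -0.75, -0.79 and -0.82 in KD1 in the authors' deposited table. Bins 2 to 4 are 2, 2 and 4 bp long, so these are in effect 1 measurement. GGA1, a clathrin adaptor that sorts mannose 6-phosphate receptors at the trans-Golgi network, had 4 listed bins, also all lower. Its exon bins 17, 22, 30 and 31 (chromosome 22, 38005073 to 38009030) had -1.98, -0.90, -1.34 and -1.07 in KD2, per the authors' deposited table. In KD1 the same 4 bins had -0.56, 0.08, 0.12 and 0.05 in the authors' deposited table, so 3 of them lay near 0 there. PSMB7, a catalytic subunit of the proteasome, had 3 bins past a size of 1 in KD2, at -1.43, -1.67 and -2.14, and its KD1 values at exon bins 4 and 5 were -1.19 and -1.30, per the authors' deposited table. In single bins, RPL34 (exon bin 16), SETMAR (exon bin 27) and ARFIP2 (exon bin 20) were below -1 in both KD2 and KD1. Their values were -2.78 and -2.19, -2.02 and -1.89, and -1.88 and -1.23 in the authors' deposited table. SETMAR and ARFIP2 have 1 listed bin each, and RPL34 has 7, with only 1 at -0.5 or lower in KD2. Of these 3, SETMAR differed least between KD2 and KD1.

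Further single genes were among the 15 lowest in KD2. SAMD11 exon bin 18 (38 bp, chromosome 1, 877516 to 877553) had -1.87 in KD2 and -0.14 in KD1 in the authors' deposited table. ITGB1BP1 binds the tail of integrin beta-1, and its exon bin 13 (22 bp) had -1.86 and -0.42 in KD2 and KD1 in the authors' deposited table. TRIM11, a ubiquitin ligase, had -1.67 and -1.30 in the abutting exon bins 8 and 7 in KD2, with -0.55 and -0.42 in KD1, per the authors' deposited table. ACIN1 exon bin 1, a bin of 8 bp, had -1.70 in KD2 and -0.56 in KD1, and DDB2 exon bin 48 had -1.57 and -0.97 in the authors' deposited table. ACIN1 is an SR-related protein of the exon junction complex, and DDB2 recognises ultraviolet damage in DNA.

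Higher usage in KD2 was smaller in size and spread over single bins. The highest value belonged to TAF15, which binds RNA and takes part in transcription, whose exon bin 16 (chromosome 17, 34147253 to 34147335, 83 bp) had 1.65 in KD2 and 0.34 in KD1 in the authors' deposited table. The METTL knockdowns stood on the other side for this bin, at -2.37 and -1.87 in METTL3 and METTL14, per the authors' deposited table. BSG, the glycoprotein that escorts lactate transporters to the membrane, had 1.58 in KD2 and 1.01 in KD1 in exon bin 5, and exon bin 6, a single base that abuts it, had the same values in the authors' deposited table. MBD5, a protein with a methyl-CpG-binding domain, had 1.46 in KD2 and -0.12 in KD1 in exon bin 5, which spans 148798775 to 148799298 of chromosome 2, per the authors' deposited table. In HNRNPA2B1 the highest bin was exon bin 1 (chromosome 7, 26228802 to 26229547, 746 bp), with 1.43 and 0.34 in KD2 and KD1, per the authors' deposited table. HNRNPA2B1 is a nuclear RNA-binding protein that has been described as an m6A reader. FZR1 switches on the anaphase-promoting complex, and its exon bin 7 had 1.42 in KD2, a bin 26 bp from a listed m6A site, in the authors' deposited table.

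MAP4, a microtubule-associated protein, had higher values in both of its listed bins. Exon bins 38 and 40 (chromosome 3, 47950528 to 47953911) had 1.33 and 1.15 in KD2 against 0.45 and 0.29 in KD1 in the authors' deposited table. CANT1, a calcium-activated nucleotidase, had 1.24 in KD2 and 0.24 in KD1 in exon bin 33, while its METTL3 value was -2.10 in the authors' deposited table. C12orf35, now named RESF1, had 1.28 in exon bin 8 in KD2, and ANKRD11, a chromatin cofactor, had 1.24 in exon bin 65, per the authors' deposited table. PRR3 exon bin 17 (1.05), FDXR exon bin 16 (1.03), LOC647946 exon bin 20 (1.03), ASXL1 exon bin 18 (1.03) and ZNF346 exon bin 42 (1.01) completed the 15 highest single-gene models in KD2 in the authors' deposited table. The ASXL1 bin is 6 bp long.

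KD1 and KD2 shared their control libraries, so part of any likeness between them comes from those libraries, and their values are set side by side without a measure of agreement. KD2 had the wider spread, with a median size of 0.256 against 0.192 in KD1 and an interquartile range of 0.522 against 0.393. In KD1, 61 bins reached a size of 1 (2.31%), 44 of them lower (1.67%), against 104 in KD2. Of the 104 KD2 bins, 20 also reached 1 in KD1, 37 had a KD1 size from 0.5 up to 1, and 47 had a KD1 size under 0.5. These 47 bins, 1.78% of all, lay in 40 gene models, 36 lower and 11 higher. The reverse, a KD1 size of at least 1 with a KD2 size under 0.5, held for 17 bins (0.645%), of which 16 were lower.

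**Figure D2:**
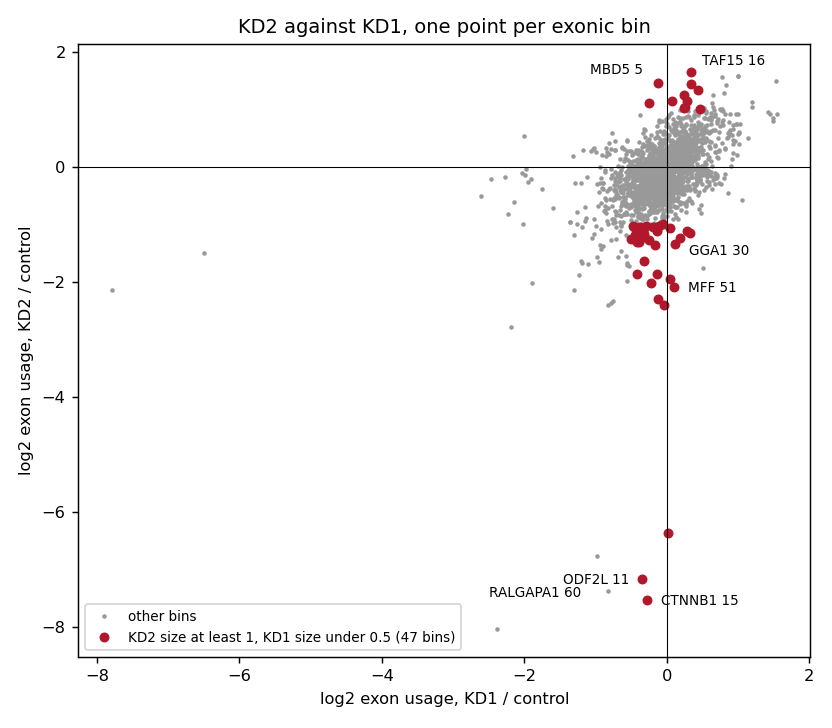
Log2 exon usage of KD2 over control (y axis) against KD1 over control (x axis), 1 point per exonic bin, with the 47 bins of KD2 size at least 1 and KD1 size under 0.5 in red and named examples given with their bin number. CTNNB1 bin 15 and ODF2L bin 11 lie far below 0 in KD2 and near 0 in KD1, and both axes share the same control libraries.

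In the KD2 value minus the KD1 value the shared control drops out, provided that both ratios used the same control estimate. This difference had a median of -0.022, and 82 bins reached a size of 1, 41 lower and 41 higher in KD2 than in KD1. Only 25 bins were at 1 or higher in KD2 itself, so some of the 41 higher ones were bins low in KD1. RBM39 exon bin 81, at -2.15 in KD1 and -0.62 in KD2, is such a bin. After CTNNB1 (-7.24) and ODF2L (-6.82), the lowest single-gene difference among the bins large in KD2 and small in KD1 belonged to MFF, which recruits the mitochondrial fission machinery. MFF exon bin 51 (chromosome 2, 228211860 to 228211941, 82 bp) had -2.09 in KD2 and 0.10 in KD1 in the authors' deposited table. The METTL3 and METTL14 values of that bin were -2.13 and -1.77, so KD1 stood alone near 0 in the authors' deposited table. Exon bin 52, which abuts it, had 0.25, 0.13, 0.31 and 0.39 in KD2, KD1, METTL3 and METTL14, per the authors' deposited table. The 82 bp of bin 51 were thus low in 3 knockdowns while the next 49 bp were not.

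Next in this ranking came SAMD11 (-1.73), MARCH6 (-1.48), GGA1 exon bin 30 (-1.46), ITGB1BP1 (-1.44), MIOS (-1.43), POLR2F (-1.41) and SEC31A (-1.20), all as KD2 minus KD1. MARCH6, now MARCHF6, is a ubiquitin ligase of the endoplasmic reticulum, and its exon bin 26 had -1.15 in KD2 and 0.33 in KD1 in the authors' deposited table. MIOS is part of the GATOR2 complex of amino acid sensing. It had only 2 listed bins, exon bin 39 at -1.25 and exon bin 11 at 0.99 in KD2, where KD1 had 0.19 and 0.28 in the authors' deposited table. POLR2F, a subunit shared by the nuclear RNA polymerases, had -1.12 in KD2, 0.29 in KD1 and -2.00 in METTL3 knockdown in exon bin 9, per the authors' deposited table. SEC31A, a protein of the COPII vesicle coat, had -1.36 and -0.17 in KD2 and KD1 in exon bin 124, per the authors' deposited table. On the higher side the differences were smaller, 1.58 for MBD5, 1.31 for TAF15, 1.09 for HNRNPA2B1, 0.99 for CANT1, 0.89 for MAP4, 0.79 for PRR3, 0.78 for ASXL1 and 0.54 for MAEA exon bin 12.

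Values past 0.5 on opposite sides in KD2 and KD1 were listed for 4 bins, 2 of them in single genes. RAN, which powers transport through nuclear pores, had -0.58 in KD2 and 1.05 in KD1 in exon bin 17 (38 bp) in the authors' deposited table. C2CD3, a centriole protein, had 0.53 in KD2 and -2.01 in KD1 in exon bin 80 (37 bp) in the authors' deposited table. Both of the other bins belong to joined models, NBEAL1andRPL12P16 exon bin 75 (-1.77 and 0.51) and SSBP1andPS3 exon bin 42 (0.59 and -0.77).

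Neighbouring bins of a gene were close in KD2. Listed bins that abut each other differed by a median of 0.051 over 778 pairs, and successive listed bins of a model that do not abut by 0.13 over 1221 pairs. A read can span abutting bins, so these are not independent. The 104 bins of size 1 came down to 87 stretches of abutting bins, and the 47 bins large in KD2 and small in KD1 to 41. NASP, a histone chaperone, gave the stretch with most bins among these 41, 4 of them. Its exon bins 32 to 35 (chromosome 1, 46072993 to 46074009, 1017 bp) had -1.31, -1.21, -1.12 and -1.02 in KD2 against -0.39, -0.34, -0.33 and -0.28 in KD1 in the authors' deposited table. A listed m6A site lies inside exon bin 34. METTL3 knockdown had -0.53, -0.49, -0.42 and -0.42 and METTL14 knockdown -0.84, -0.81, -0.79 and -0.76 in the same bins of the authors' deposited table, so they were lower in all 4 knockdown columns. The farther NASP bins 38 and 67 had -0.61 and -0.21 in KD2, per the authors' deposited table.

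**Figure D3:**
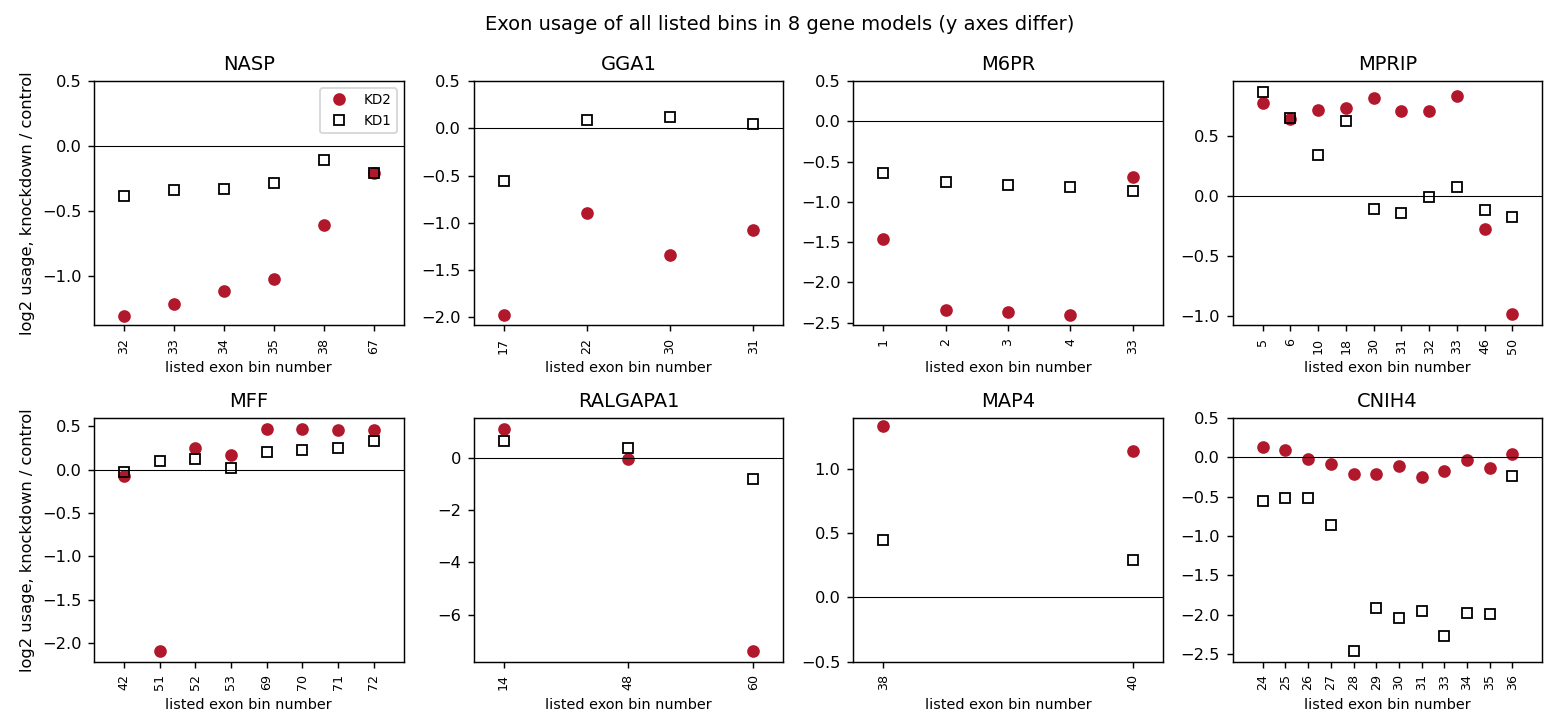
Log2 exon usage of knockdown over control (y axes, which differ) for every listed bin, in order of bin number (x axes), of 8 gene models, with KD2 as filled red circles and KD1 as open black squares. NASP, GGA1 and M6PR lie lower in KD2 than in KD1 over several bins, and MFF and RALGAPA1 have 1 far lower bin. MAP4 is higher in KD2 than in KD1, and so are several MPRIP bins. Other MPRIP bins are alike in both, and its bin 50 is lower in KD2. CNIH4 is low in KD1 and near 0 in KD2.

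MPRIP, which ties myosin phosphatase to actin, held bins on both sides. Of its 10 listed bins, 8 stood between 0.65 and 0.83 in KD2, and exon bin 50 stood at -0.98 in the authors' deposited table. Exon bins 30 to 33 abut each other (chromosome 17, 17067423 to 17071229) and had 0.82, 0.72, 0.71 and 0.83 in KD2 against -0.106, -0.138, -0.003 and 0.082 in KD1 in the authors' deposited table. Both METTL knockdowns were higher here, from 0.57 to 1.33 in METTL3 and from 0.75 to 1.53 in METTL14, per the authors' deposited table. Exon bin 32 holds a listed m6A site. Bins 5, 6 and 18 of the same gene were alike in KD2 and KD1, at 0.78 and 0.87, 0.65 and 0.65, and 0.74 and 0.63 in the authors' deposited table.

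Of 449 gene models with at least 2 listed bins, 116 had all of them lower in KD2, 60 had all of them higher and 273 had bins on both sides. A bin of at least 0.5 in each direction was listed in 27 models, 16 of them single genes. ENAH, an actin regulator, had -1.56 in exon bin 14 (63 bp) and 1.01 in exon bin 28 in KD2, per the authors' deposited table. The KD1 values of these bins were -0.57 and 0.75 in the authors' deposited table, on the same sides. By the difference between the highest and the lowest KD2 bin, the widest single genes of the 16 were RALGAPA1 (8.48), ENAH (2.57), MIOS (2.24), MBD5 (2.15), C12orf35 (1.98) and ZNF678 (1.95).

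Long bins leaned toward lower usage in KD2. The share of bins below 0 was 48.3% in bins under 20 bp (242 bins), 51.8% from 20 to under 100 bp (699), 53.8% from 100 to under 300 bp (714), 61.7% from 300 to under 1000 bp (559) and 68.4% at 1000 bp or longer (421). The medians in that order were 0.006, -0.017, -0.040, -0.133 and -0.151. KD1 medians were 0.037, 0.002, 0.004, -0.063 and -0.124 over the same classes, with the same control libraries. The lower share in the longest class had an exact interval of 63.7 to 72.8% and that in the shortest 41.9 to 54.8%. These intervals cover counting error only and take bins as independent. Large changes did not rise or fall steadily with length. From the shortest to the longest class, 4.96, 4.29, 3.78, 4.65 and 2.14% of bins reached a size of 1. The share over all bins was 3.95%. The exact intervals of the shortest and the longest class, 2.59 to 8.50% and 0.982 to 4.02%, overlap. Short bins hold fewer reads at a given level, and the depth per bin is unknown.

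Bins that hold an m6A site were split nearly evenly between lower and higher usage. Of 96 bins that hold a listed site, in 85 models, 49 were lower in KD2 (exact interval of the share 40.6 to 61.4%), with a median of -0.024. The 237 further bins within 500 bp of a site had 52.3% lower and a median of -0.019, the 740 bins beyond that and within 5000 bp had 59.2% and -0.092, and the 1562 bins farther away had 56.7% and -0.063. A size of 1 was reached by 3 bins with a site inside (3.12%), 5 within 500 bp (2.11%), 31 beyond that and within 5000 bp (4.19%) and 65 beyond (4.16%), beside 3.95% of all bins. The exact intervals of these shares overlap, and a difference in the share of large changes with distance was not detectable with these numbers of bins. Bins with a site inside are long, with a median of 757 bp, and long bins as a whole leaned lower. Among bins of 1000 bp or longer, 23 of 40 with a site inside were lower, with a median of -0.044, against 177 of 250 and -0.172 for those farther than 5000 bp from a site. Bins of that length within 500 bp of a site, but without one inside, were lower in 17 of 24, with a median of -0.161, close to the far bins.

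**Figure D4:**
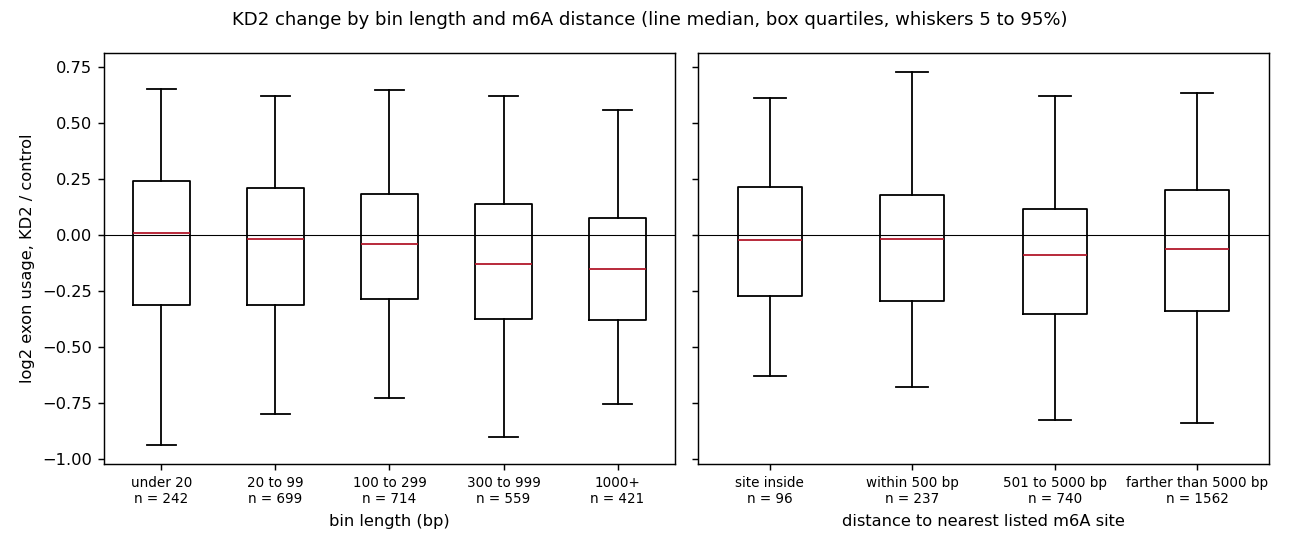
Log2 exon usage of KD2 over control (y axis) by bin length (left) and by distance to the nearest listed m6A site (right), with the median as a red line, quartiles as boxes and the 5th to 95th percentile as whiskers. Medians go from 0.006 in bins under 20 bp to -0.151 in bins of 1000 bp or longer, while those by distance stay between -0.092 and -0.019.

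Among single genes, the lowest KD2 values in bins with a listed site were those of NASP exon bin 34, described above, and ATG4B exon bin 43 (chromosome 2, 242598995 to 242599732), at -1.04 in KD2 and -0.19 in KD1 in the authors' deposited table. ATG4B is a protease that processes the autophagy protein LC3. ZDHHC3, a palmitoyltransferase of the Golgi, had -0.68 in KD2 and -1.13 in METTL3 knockdown in exon bin 4, per the authors' deposited table. RPL31 exon bin 19 had -0.63, and RBM39, a splicing factor, had -0.62 in KD2 but -2.15 in KD1 in exon bin 81, per the authors' deposited table. ZNF8 exon bin 26 (-0.54), C16orf57 exon bin 21 (-0.46) and DDHD1 exon bin 2 (-0.43) completed the 8 lowest single-gene models with a site inside in KD2 in the authors' deposited table. C16orf57 is now named USB1 and trims the end of U6 small nuclear RNA.

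Highest among the bins with a site inside was C11orf59 exon bin 2 (chromosome 11, 71796745 to 71797490), at 0.93 in KD2 and 0.55 in KD1 in the authors' deposited table. C11orf59, now LAMTOR1, anchors the Ragulator complex on lysosomes. C1orf57 exon bin 20 had 0.86 in KD2, and ELAVL1 exon bin 18 (chromosome 19, 8055900 to 8056527) had 0.75 in KD2 and 0.28 in KD1 in the authors' deposited table. ELAVL1 encodes HuR, which binds AU-rich elements and stabilises mRNA. MPRIP exon bin 32 (0.71), PDXK exon bin 26 (0.63), GRAMD1A exon bin 14 (0.61), ANKLE2 exon bin 12 (0.58) and UBE2G2 exon bin 22 (0.54) followed in KD2 in the authors' deposited table. ANKLE2 and UBE2G2 had -1.05 and -0.96 in METTL3 knockdown, on the other side of 0, in the authors' deposited table.

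The METTL knockdowns have control libraries of their own, so their values beside KD2 share no library with it. Of the 79 bins at -1 or lower in KD2, 69 were below 0 in METTL3 knockdown (87.3%, against 53.4% of all bins) and 67 in METTL14 knockdown (84.8%, against 56.2%). Their medians there were -0.53 and -0.63, against -0.039 and -0.043 over all bins. Of the 25 bins at 1 or higher in KD2, 20 were above 0 in METTL3 (80.0%, against 46.6% of all) and 21 in METTL14 knockdown (84.0%, against 43.4%). The 5 bins below 0 in METTL3 knockdown belonged to TAF15, CANT1, MAEA and MAP4, the last with both of its bins. For the 47 bins large in KD2 and small in KD1, 36 lower and 11 higher, the METTL3 values were below 0 in 36 and the METTL14 values in 30. Both counts pool lower and higher KD2 bins, so they are not counts of bins on the same side as KD2. The 5 bins of TAF15, CANT1, MAEA and MAP4, all higher in KD2, are among the 36 in METTL3. In METTL14, TAF15 and CANT1 are among the 30. All counts here are over bins, several of which share a gene, and how the authors selected the listed bins is unknown. METTL3 and METTL14 share their own control libraries.

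Among gene groups, the ubiquitin and proteasome genes held the most bins of size 1 in KD2, 10 lower and 2 higher of 130 bins in 30 models (9.23%, beside 3.95% of all bins). Their median was -0.231, against -0.064 over all bins and 0.038 for the same group in KD1. Without its model with most bins, UBCandSCARB1, the group's medians were -0.147 in KD2 and -0.045 in KD1. The lower bins came from few models: 4 of the 10 from ANAPC11andNPB, 3 from PSMB7, 2 from DDB2 and 1 from PSMA2andC7orf25. ANAPC11 is the catalytic RING subunit of the anaphase-promoting complex, and its joined model with NPB had 7 listed bins, all lower in KD2, at -6.77 to -0.71 in the authors' deposited table. The 7 KD1 values ran from -1.11 to 0.15 in the authors' deposited table. A bin of a joined model is measured against several genes, so a shift of 1 gene's level can move it. The bins of ANAPC11andNPB and FZR1 are also all 5 bins of size 1 in the cell cycle group. That group has only 27 bins, so its share of size 1 was larger, 18.5%. The higher bins of the ubiquitin and proteasome group belonged to FZR1 and MAEA, a subunit of the CTLH ubiquitin ligase. MAEA had 1.00 and 0.88 in exon bins 12 and 13 in the authors' deposited table.

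Zinc finger genes of the ZNF kind had the highest median of the 17 groups, 0.177 over 49 bins in 18 models, against -0.016 in KD1. That median rested on ZNF655, which supplied 10 of the bins, and without it the other 39 bins had a median of -0.064, with 19 higher and 20 lower. Of all 49 bins 29 were higher and 20 lower, and 2 reached 1 (4.08%, beside 3.95% of all bins). At 0.5 or above stood 9 and at -0.5 or below 11, beside 7.78% and 13.9% of all bins. ZNF346 exon bins 41 and 42 had 0.86 and 1.01 in KD2, and ZNF655 exon bins 66, 67, 70 and 71 had 0.95, 0.85, 0.80 and 0.92 in the authors' deposited table. The KD1 values of these 4 ZNF655 bins were higher still, from 1.42 to 1.50 in the authors' deposited table. The other ZNF bin of size 1, exon bin 50 of the joined model ZNF318andCRIP3, had 1.13 in KD2 there. ZNF664 stood on the other side, at -0.99 in KD2 and -2.02 in KD1 in exon bin 56, per the authors' deposited table. Translation factors had 21 of 65 bins at -0.5 or lower and 1 at 0.5 or higher, beside 13.9% and 7.78% of all bins, but 19 of the 21 lay in the joined model EEF1DandNAPRT1. Without it 2 of 38 bins were at -0.5 or lower, with a median of -0.007. The 4 bins at -1 or lower (6.15%, beside 3.00% of all bins) lay in EEF1DandNAPRT1 and the joined model TUT1andEEF1G. DNA repair genes had a median of -0.246 over 36 bins in 8 models, with 11 at -0.5 or lower and 2 at 0.5 or higher, beside 13.9% and 7.78% of all bins. Of the 11, 8 were bins of DDB2, which supplied 18 of the 36, and 3 were bins of MDC1. Genes of polyadenylation, export and decay had a median of -0.226 over 46 bins, with 9 at -0.5 or lower and 1 at 0.5 or higher, beside the same shares of all bins, and 4 of the 9 were bins of SRRT.

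Among groups that act in splicing themselves, bins of size 1 made up 2.63% of the hnRNPs, 2.22% of SR proteins and 1.08% of other splicing regulators, beside 3.95% of all bins, which for groups of this size is a difference of few bins. The hnRNPs had 38 bins in 8 models and 1 bin of size 1, in HNRNPA2B1. Their median of -0.192 turned to 0.163 without the joined model PRR13andPCBP2, which held 20 of the 38 bins, and 13 of the other 18 bins were above 0. HNRNPH3 exon bin 54 (0.60) and HNRNPH1 exon bin 39 (0.39) came next in size in single genes in the authors' deposited table. Core spliceosome genes had 27 bins in 10 models, a median of -0.127 and none of size 1. PRPF8, the central protein of the spliceosome, had 0.92 in KD2 and 1.55 in KD1 in exon bin 48, and SNRPD2, an Sm protein, had -0.54 in KD2 and 0.32 in KD1 in exon bin 13, per the authors' deposited table. SR proteins and related genes had 45 bins in 9 models with a median of -0.008, against -0.310 in KD1, and 1 bin of size 1, that of ACIN1. The joined model C7orf55andLUC7L2 held 16 of these bins, with medians of 0.281 in KD2 and -0.359 in KD1, and the other 29 bins had -0.101 and -0.244. SRSF10 exon bin 15 (-0.51) and SRSF7 exon bin 2 (-0.49) were the next lowest, and the 4 bins at 0.5 or above lay in C7orf55andLUC7L2, at 0.60 to 0.79 in the authors' deposited table. Other RNA-binding splicing regulators had 93 bins with a median of -0.047 and 1 of size 1, in TAF15. ILF2 had the lowest value of this group, in exon bin 1, at -0.86 in KD2 and 0.01 in KD1 in the authors' deposited table. The m6A writers, erasers and readers were represented by 3 bins, in HNRNPA2B1 and HNRNPC, all above 0.

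The remaining groups are given by their medians, beside -0.064 over all bins. Their bins of size 1 stand beside 3.95% of all bins, 3.00% lower and 0.949% higher. Ribosomal proteins of the large subunit had a median of -0.102 and 3 bins of size 1 of 63 (4.76%). Those of the small subunit had -0.045 and 1 of 70 (1.43%). Mitochondrial proteins had -0.046 with 6 bins at -1 or lower and 1 at 1 or higher of 125 (5.6% of size 1). Among them were MFF, BRP44L (now MPC1, of the mitochondrial pyruvate carrier) with -1.27 in exon bin 19, and BCAT2 with -1.26 in exon bin 43 in KD2, per the authors' deposited table. The BRP44L bin is 4 bp long and the BCAT2 bin 14 bp. Chromatin regulators were split 44 to 44 with a median of -0.002, and 4.55% of their 88 bins were of size 1. SETMAR was lowest and MBD5 highest. Glycolysis, lactate and pyruvate genes had -0.177 over 39 bins, 7.69% of them of size 1. Over the 22 bins outside the joined model GPIandPDCD2L the median was 0.005. Cell cycle genes had -0.161 over 27 bins, and -0.067 over the 17 outside PNPOandCDK5RAP3. Of the 27, 18.5% were of size 1, all in ANAPC11andNPB and FZR1. Cytoskeletal genes had -0.072 over 110 bins in KD2 and 0.328 in KD1, and without the joined model KIF1BandPGD, which held 49 of them, -0.190 and 0.068. Of their bins, 2 reached a size of 1 in KD2 (1.82%), both higher. At 0.5 or above in KD2 stood 17, beside 7.78% of all bins, 8 of them in MPRIP, 4 in ACTG1, 3 in TUBA1B and 2 in MAP4.

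**Figure D5:**
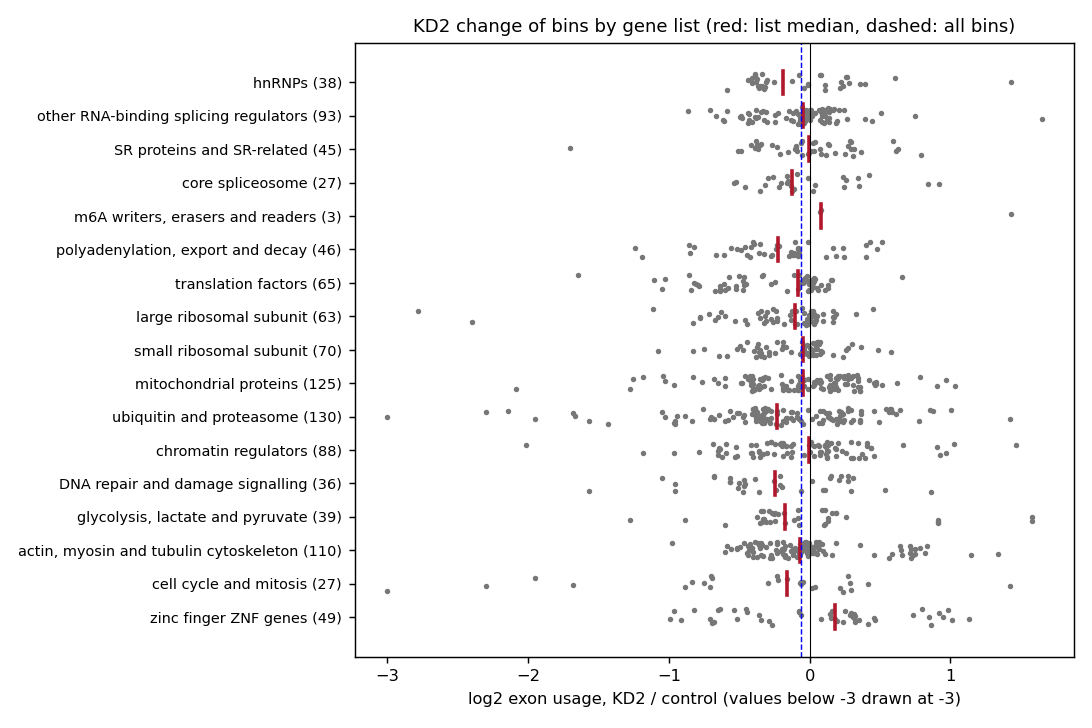
Log2 exon usage of KD2 over control (x axis, values below -3 drawn at -3) for the bins of each of 17 gene groups (y axis, bins per group in brackets), with the group median in red and the median of all bins, -0.064, dashed. The ZNF genes have their median at 0.177, or -0.064 without ZNF655, and the ubiquitin and proteasome genes hold 10 bins at -1 or lower.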

How the data were processed

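The authors deposited 1 exon table with a log2 ratio of control over knockdown for each exonic bin and knockdown, from DEXSeq per the labels. Its unit is log2 throughout, and the sign was turned here to knockdown over control. The submitters' processing notes name hg19, Trimmomatic, Bowtie 1.0.0, TopHat 1.1.4, Cufflinks and Cuffdiff, without their roles. How the listed bins were selected is unknown from these sources. The table holds no counts, so depth per library is unknown, and replicates cannot be compared.

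All 2635 bins were kept. Lengths came from the bin coordinates, and m6A distances from the sites listed for each gene model. Older gene symbols were matched through a name table: of 780 symbols 676 were current, 87 matched by an older name and 17 did not match. Medians have order-statistic intervals and shares exact Clopper-Pearson intervals at 95%, both for counting error only. No test was made. Python 3.11.15, pandas 2.3.3, numpy 2.4.6, scipy 1.17.1 and matplotlib 3.10.9 were used, and the calculations were tested on simulated data.

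Named bins came from single-gene models, 1 per model and side. They were the 15 lowest and 15 highest in KD2, the 10 lowest and 10 highest by KD2 minus KD1 among bins large in KD2 and small in KD1, up to 10 on opposite sides, the 8 lowest and 8 highest with a site inside, up to 3 per gene list, and the 5 models with most bins of size 1. Other bins of the same models are given beside them, and the remaining named bins were chosen after their values were seen. The members and lists were chosen with earlier results of these data known. Alternatives were centring, a size of 0.5, single-gene models only, a minimum length of 20 bp, the longest bin per model, other m6A distances and, chosen after seeing the data, abutting bins collapsed to runs and each gene list without its model with most bins.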

Additional observations from a re-analysis of the deposited data

How the results depend on the processing

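Of 99 alternatives over the counts, shares and medians, 77 lay inside the interval of the reported value and 22 outside it. That interval is wide for small classes, so a value inside it need not be close. With abutting bins collapsed, the share of size 1 within 500 bp of a site went from 2.11 to 0.758% and stayed inside. Only the median over all bins could be counted as reversed, and it was not. None of the 85 named bins changed side when centred on the median of -0.064. None could, since those below 0 stood at -0.16 or lower. Centring on the median gave 49.87% of bins lower and a median of 0, both set by the centring itself, and 64.36% lower among bins of size 1. The longest bin per gene model gave 64.47% lower and a median of -0.132. At a size of 0.5, 21.71% of bins passed, 64.16% of them lower. With the KD1 size still under 0.5, 14.42% of all bins passed in KD2 only. The 2 limits then meet, so unlike the reported share this one can hold bins that barely differ between KD2 and KD1. By length, from shortest to longest, 25.21, 20.89, 19.47, 25.04 and 20.43% passed a size of 0.5. By m6A distance, from a site inside to farther than 5000 bp, 19.79, 22.78, 22.57 and 21.25% passed it. With the longest bin per model, bins of size 1 made up 0% of those under 20 bp, 6.383% at 20 to 99 bp and 0% within 500 bp of a site. Abutting bins collapsed to runs, chosen after seeing the data, gave 8.889% under 20 bp, and single-gene models gave 5.307% farther than 5000 bp. Apart from centring, which keeps all bins and the size of 1, these alternatives keep fewer units or use a lower size by construction. Leaving out the gene model with most bins, chosen after seeing the data, turned the median of the hnRNPs, the ZNF genes and the glycolysis genes to the other side of 0. No value under 20 bp exists with a minimum length of 20 bp. No paired analysis was possible because the table holds 1 ratio per bin and knockdown, with no value per library, and for the same reason leaving out a replicate was not run. The unknown depth limits every single bin.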

Other observations

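Some genes had large values over many bins in KD1 and small ones in KD2, and these were chosen after their values were seen. CNIH4, which helps cargo leave the endoplasmic reticulum, had 12 listed bins with a median of -1.93 in KD1 and -0.10 in KD2. Its 7 listed bins from exon bin 28 to 35 (chromosome 1, 224564596 to 224566770) stood between -2.47 and -1.91 in KD1 and between -0.26 and -0.03 in KD2 in the authors' deposited table. ARIH2, a ubiquitin ligase that works with cullin complexes, had exon bins 21 to 26 at -1.02 to -0.62 in KD1 and 0.19 to 0.41 in KD2 in the authors' deposited table. METTL14 knockdown had 0.53 to 0.73 in these 6 ARIH2 bins, and -0.83 to -0.62 in the 7 CNIH4 bins, per the authors' deposited table.

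In the joined model DCUN1D3andERI2andTHUMPD1, the abutting exon bins 32 and 33 had -2.15 and -8.03 in KD2 but -7.79 and -2.39 in KD1 in the authors' deposited table. The bins of 72 and 83 bp thus swapped order between the knockdowns, and no count is at hand for either. Bins 1 to 17 of this model lay below 0 and bins 74 to 79 between 0.65 and 0.71 in KD2, per the authors' deposited table.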
